A study of Mus musculus with 7 samples.

Results

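Cluster 10 of the authors' clustering holds the Plac8- and Lyz2-expressing, monocyte-like cells of the healthy mouse kidney. It was taken whole, as all cells to which the deposited matrix gives the cluster number 10, and holds 549 of the 43745 cells in the matrix. The data are single-cell RNA-seq counts (10x Chromium, 3′ ends) from the whole kidneys of 7 mice of the C57BL/6 strain, 4 to 8 weeks old. By their labels, 4 mice were wild type (WT) and the other 3 carried a Cre transgene together with the mTmG reporter, which switches its fluorescent protein in cells where Cre acts: Cdh16CremTmG, SclCremTmG and Nphs2CremTmG, named after genes of tubule, of blood and vessel lineages, and of podocytes. All 7 kidneys were untreated. The cell barcodes end in a number from 1 to 7, which gives the library, but no source used here ties that number to a mouse, so the libraries are treated as 7 samples of healthy kidney and no genotype is compared.

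Monocytes are blood-borne phagocytes that arise in the bone marrow. Classical monocytes, marked in the mouse by Ly6c2 and the chemokine receptor Ccr2, leave the blood and can become macrophages or dendritic cells, whereas patrolling monocytes, marked by Nr4a1, Treml4 and Spn, stay in the vessel and survey the endothelium. The kidney also holds long-lived resident macrophages, which make the complement subunits C1qa, C1qb and C1qc, and dendritic cells of several kinds, which present antigen on MHC class II.

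The 5 genes used to mark the cells are Plac8, a small cysteine-rich protein of myeloid and lymphoid cells, Lyz2, the lysozyme of phagocytes, Ms4a6c, a tetraspan membrane protein, Csf1r, the receptor of the macrophage growth factor CSF1, and Cd209a, a C-type lectin of the DC-SIGN family. On GRCm38, Plac8 lies on the reverse strand of chr5:100553725-100572245, Lyz2 on the reverse strand of chr10:117277331-117282321, Ms4a6c on the forward strand of chr19:11469366-11482192 and Cd209a on the reverse strand of chr8:3743397-3748984, all 4 as protein-coding genes. The 250 bases before the start of these 4 genes, which set the cluster apart below, are shown 5′ to 3′ on the gene's strand, from RefSeq on GRCm38.p6 (Plac8 chr5:100572206-100572455, Lyz2 chr10:117282273-117282522, Ms4a6c chr19:11469118-11469367, Cd209a chr8:3748985-3749234; for Plac8 the more upstream of 2 starts). Capitals mark motif matches on either strand.
Plac8: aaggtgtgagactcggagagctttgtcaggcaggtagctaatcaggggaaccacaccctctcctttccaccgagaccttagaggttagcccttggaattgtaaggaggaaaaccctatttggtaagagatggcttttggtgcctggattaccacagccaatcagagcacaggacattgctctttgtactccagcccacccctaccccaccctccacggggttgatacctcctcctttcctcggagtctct
Lyz2: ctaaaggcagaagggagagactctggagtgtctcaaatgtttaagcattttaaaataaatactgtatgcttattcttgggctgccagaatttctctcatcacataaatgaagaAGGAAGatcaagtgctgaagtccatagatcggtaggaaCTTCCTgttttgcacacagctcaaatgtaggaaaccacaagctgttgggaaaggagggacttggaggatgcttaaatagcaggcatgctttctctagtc
Ms4a6c: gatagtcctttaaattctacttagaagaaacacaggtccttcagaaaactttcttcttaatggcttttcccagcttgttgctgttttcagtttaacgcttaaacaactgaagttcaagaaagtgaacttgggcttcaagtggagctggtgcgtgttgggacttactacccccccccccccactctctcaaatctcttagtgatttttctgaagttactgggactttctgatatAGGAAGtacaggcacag
Cd209a: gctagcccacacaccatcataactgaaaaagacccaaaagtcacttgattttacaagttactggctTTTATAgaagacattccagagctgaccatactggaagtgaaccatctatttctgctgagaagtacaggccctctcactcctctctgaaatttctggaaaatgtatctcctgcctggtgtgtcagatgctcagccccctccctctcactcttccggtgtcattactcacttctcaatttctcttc
The motifs searched were GAGGAAGT (a PU.1 site, in 2.44% of 32851 promoter windows of the same length), TTGCNNAA (C/EBP, in 9.56%), the interferon response element (in 2.98%) and TATAAA (the element bound by the TATA-binding protein, in 12.4%). None of the first 3 matched in the 4 windows, and TATAAA matched on the opposite strand of Cd209a (TTTATA, bases 67 to 72 of the window). After these sequences had been read, the shorter core AGGAAG, shared by PU.1 and other ETS factors and contained in GAGGAAGT, was added: it is in 29.5% of windows, and matched at bases 114 to 119 (AGGAAG) and, on the opposite strand, 152 to 157 (CTTCCT) of Lyz2 and at bases 234 to 239 (AGGAAG) of Ms4a6c.

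The libraries differed in depth and size. Cluster 10 had a median of 2652 UMIs (unique transcript counts) per cell and 5.98% mitochondrial UMIs, with library medians between 1933 UMIs in library 6 and 4413 UMIs in library 7. Library 6 supplied 235 of the 549 cells and library 3 only 17. No doublet caller was run, and 55 cells of the cluster (10.0%) held 2 or more UMIs of lymphocyte, neutrophil or endothelial markers. Of the 549 barcode sequences, 25 were also seen in another library, none of them in cluster 10 there.

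The cells made up a small share of every kidney. They were 1.66% of cells in library 1, 1.11% in library 2, 1.23% in library 3, 0.962% in library 4, 0.63% in library 5, 1.93% in library 6 and 1.44% in library 7, a mean of 1.28% ± 0.438 (SD, n = 7). Library 5 was lowest and library 6 highest, and their 95% Wilson intervals (0.512 to 0.774% and 1.70 to 2.19%), which cover counting error only, did not overlap. Among the cells of clusters 10 to 15, whose leading genes are those of immune cells, the share ran from 4.97% in library 4 through a median of 18.6% to 43.0% in library 7.

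Plac8 and Lyz2 set the cluster apart in every library, and Cd209a was almost absent elsewhere. Levels here are CPM, the UMIs of a gene scaled to a common total, of the summed cells of a cluster in a library, so they compare the same gene between clusters. Since the authors' clusters come from these same data, the differences between clusters are descriptions with no test. Plac8 ran from 3102 CPM in library 1 through a median of 4755 to 8851 CPM in library 7 (mean 5503 ± 1967, SD, n = 7), and the next highest cluster, cluster 13, had a mean of 515 CPM. Lyz2 ran from 7949 CPM in library 5 through 14136 to 19205 CPM in library 7 (13771 ± 4458), and the next highest, the neutrophil-like cluster 12, had 3357 CPM. Every library of cluster 10 lay above the mean of every other cluster for both genes. Ms4a6c ran from 643 through 1055 to 1515 CPM, against a mean of 412 CPM in cluster 11, whose leading genes are those of resident macrophages. Cd209a ran from 5.88 CPM in library 6 through 215 to 390 CPM in library 2, and its highest mean elsewhere was 1.89 CPM, in cluster 11. Library 6 rested on 3 Cd209a UMIs, with an exact Poisson interval of 1.21 to 17.2 CPM. Csf1r was the exception among the 5 markers: it ran from 131 through 212 to 435 CPM and averaged 242 ± 119 CPM in cluster 10, below the 457 CPM of cluster 11.

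**Figure D1:**
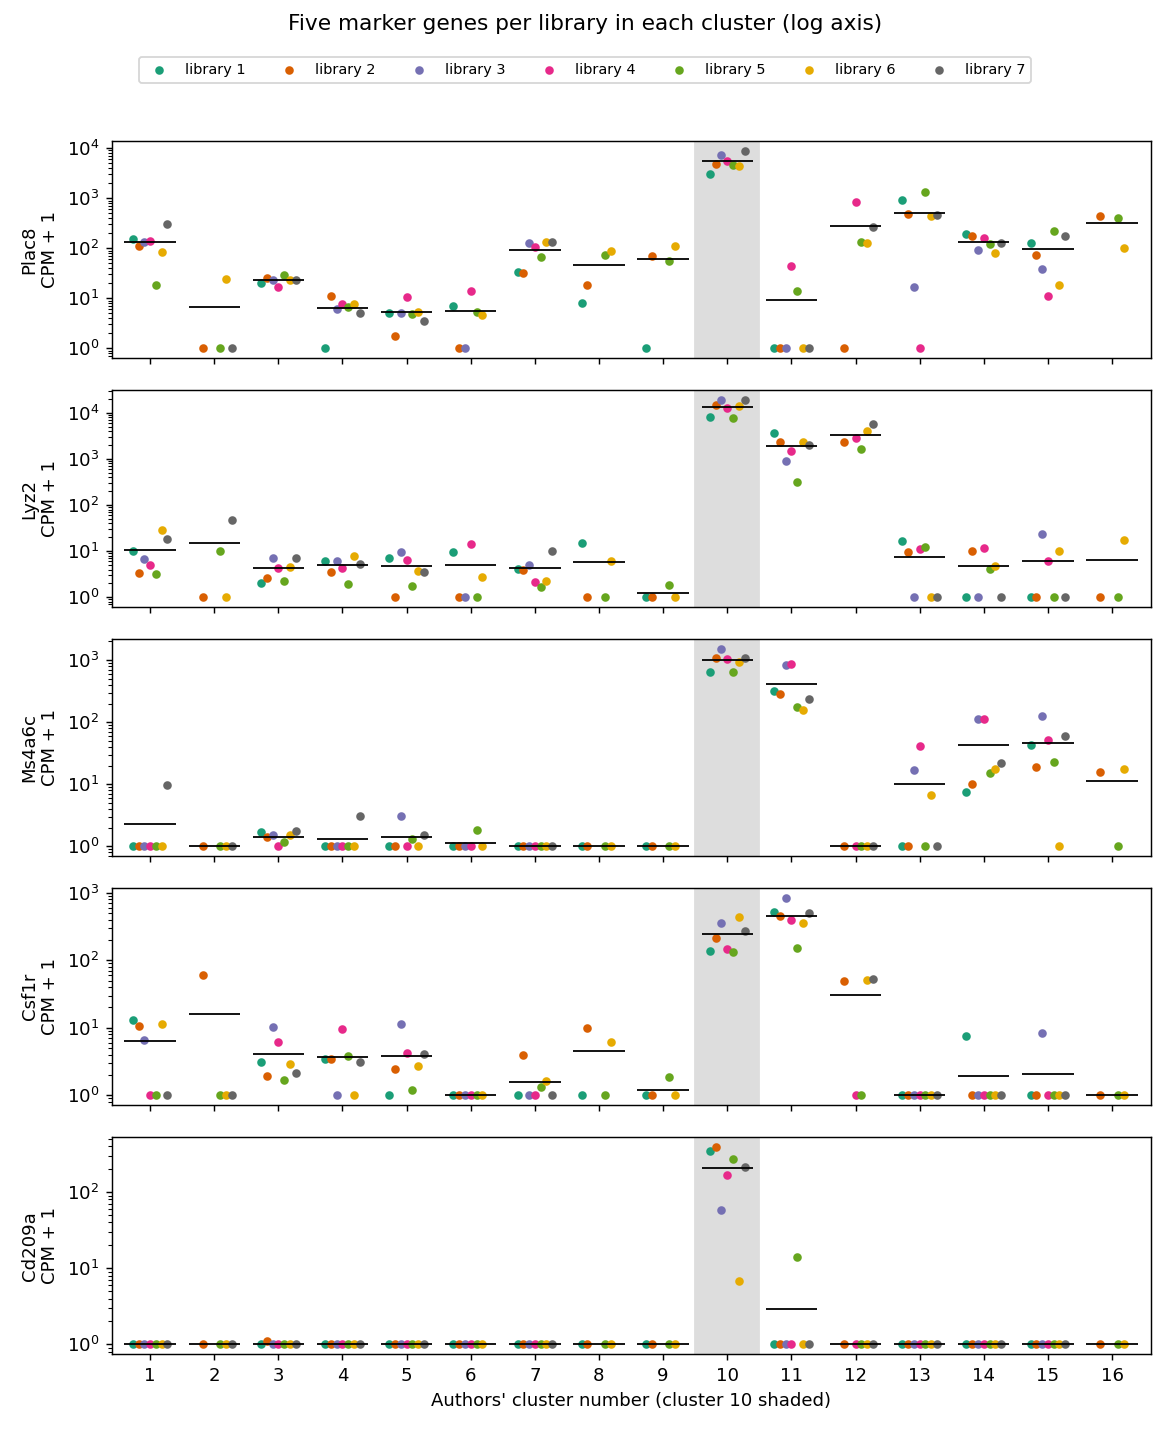
Level of Plac8, Lyz2, Ms4a6c, Csf1r and Cd209a (CPM + 1, log axes) in each of the authors' 16 clusters; each point is a library with at least 5 cells in the cluster and each line the mean over libraries. Cluster 10 (shaded) holds the highest mean of 4 of the genes, while the Csf1r mean is higher in cluster 11 (457 against 242 CPM) and Cd209a in library 6 is near the level of the other clusters (5.88 CPM).

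Single cells gave the same picture for the broad markers and another for the narrow ones. Plac8 was detected in 93.3% of the 549 cells, Lyz2 in 87.2%, Ms4a6c in 74.0%, Csf1r in 48.8% and Cd209a in 11.5%. In the proximal tubule-like cells of cluster 3, which should lack them and had a median of 2281 UMIs, the shares were 6.05% for Plac8, 0.748% for Lyz2, 0.106% for Ms4a6c and 0.00378% for Cd209a. With every cell thinned to 1000 UMIs, which left out 22 cells of cluster 10 and 1607 of cluster 3, Plac8 was found in 88.8% against 2.38% of cells and Lyz2 in 81.2% against 0.342%. Reads of close paralogs could be split between genes: 1.74% of the 98-base windows near the 3′ end of Lyz2 transcripts also occur in Lyz1, and 17.2% of those of Ly6c2 in Ly6c1, the endothelial form, which had 16 UMIs in cluster 10.

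Across all 16272 genes, 168 (1.03%) were at least 4-fold above the mean of the other 15 clusters with 10 CPM added to both. The 25 with the largest folds and at least 100 CPM included proteins of the monocyte surface and of monocyte defence. Ms4a4c, a relative of Ms4a6c, averaged 405 ± 220 CPM (22.1-fold), Ifitm3, a membrane protein that blocks virus entry, 4020 ± 1204 CPM (16.3-fold), and Mpeg1, the pore-forming perforin-2 of phagocytes, 368 ± 64.2 CPM (16.5-fold). The 25 also held genes known from single monocyte classes. Of classical monocytes, Fn1, which encodes fibronectin, averaged 177 ± 79.5 CPM (16.9-fold), F13a1, the coagulation factor XIII A subunit, 128 ± 49.1 CPM (13.6-fold) and Chil3, a chitinase-like protein of classical monocytes, 223 ± 155 CPM (13.1-fold). Gngt2, a G-protein gamma subunit, at 843 ± 461 CPM (18.9-fold), Ear2, an eosinophil-associated ribonuclease, at 160 ± 131 CPM (16.4-fold) and Adgre4, an adhesion receptor, at 124 ± 54.4 CPM (12.9-fold) are genes of patrolling monocytes. Siglech and Cox6a2, which mark plasmacytoid dendritic cells, were also among them, at 219 ± 148 CPM (21.6-fold) and 145 ± 113 CPM (12.7-fold).

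Genes of mononuclear phagocytes were high in the cluster. Of 18 such genes, 17 were at least 2-fold above the mean of the other clusters, against 4.43% of all genes, and the median of the list was 2.94 on the log2 scale against -0.15 over all genes. The list holds Plac8, Lyz2, Ms4a6c and Csf1r, which mark the cluster and are no support. Of the other 14 genes 13 were above, which is a description too, since the clusters come from the same data. Of the 18 genes, 10 had their highest level in cluster 10. Tyrobp, the signalling adaptor of myeloid receptors, averaged 3787 ± 863 CPM, below the 4571 CPM of cluster 12. Spi1, which encodes PU.1, averaged 541 ± 166 CPM, against 482 CPM in cluster 12. Of 12 classical monocyte genes 10 were at least 2-fold above, with Ccr2 at 419 ± 158 CPM and Ly6c2 at 710 ± 375 CPM; of 14 patrolling monocyte genes 10 were, with Nr4a1 at 127 ± 61.2 CPM. Ly6c2 was not confined to cluster 10: it also averaged 472, 409 and 450 CPM in clusters 13, 14 and 15. Cluster 12 exceeded cluster 10 for Hp (1103 against 275 CPM), and cluster 11 exceeded it for the fractalkine receptor Cx3cr1 (541 against 138 CPM).

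Dendritic cell genes were present in part. All 7 plasmacytoid genes were at least 2-fold above the mean of the other clusters. Of the 7, 5 had their highest level in cluster 10, and the list summed to 1439 CPM against 1322 CPM in cluster 13. Of 9 genes of type 1 dendritic cells 6 were at least 2-fold above that mean, among them Naaa at 131 ± 80.9 CPM. Naaa was detected in 13 cells with Xcr1 or Clec9a, both on the type 1 list, and in 102 cells without them. Irf8, also on the type 1 list, had 333 UMIs in the cells with Siglech described below and 294 in the others. Of the list of 14 genes that holds Cd209a itself, 5 were at least 2-fold above, Cd209a among them. Of the other 4, Clec10a, another C-type lectin, averaged 110.2 ± 66.9 CPM and Flt3, the dendritic growth factor receptor, 23.1 ± 17.7 CPM. Mgl2 was at 5.78 CPM against 383 CPM in cluster 11, and Ccr7 and Fscn1, which mark migrating dendritic cells, had 2 and 1 UMIs in all.

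Most genes of other cell types were low, and some of the exceptions, but not all, were tied to single libraries. Of the 12 resident macrophage genes 3 were at least 2-fold above the mean of the other clusters and 6 at least 2-fold below (4.43 and 8.79% of all genes were). None had its highest level in cluster 10: C1qa averaged 4.98 CPM against 4813 CPM in cluster 11, C1qb 25.2 against 4504 and C1qc 5.67 against 3595 CPM. Apoe, a lipid carrier, was at 1061 ± 345 CPM against 6093 CPM there, and at 718 CPM or more in every library of cluster 10. Of the 10 neutrophil genes none was 2-fold above; their summed level ran from 17.3 through 57.4 to 1157 CPM, and the highest value, in library 6, came largely from S100a8 (486 CPM) and S100a9 (490 CPM), while S100a9 was at 0 in the other 6 libraries. These values rest on few cells: over the cluster S100a8 was detected in 1.28% and S100a9 in 0.546% of cells. Ly6g, the defining surface gene of neutrophils, had 0 UMIs. T cell genes summed to between 0 and 164 CPM per library, and B cell and plasma cell genes to between 20.9 and 130 CPM. Of the 7 fibroblast genes in the matrix, Col1a1, Col1a2, Col3a1 and Fbln1 had 0 of 1656208 UMIs, which allows up to 1.81 CPM each, and the other 3 had 6 UMIs together. Of the 8 proliferation genes, all were at least 2-fold below the mean of the other clusters (8.79% of all genes were), with Cdk1, Ccnb2 and Birc5 at 0 UMIs. Against clusters 11 to 15 only 1 of the 8, Stmn1, was 2-fold below. Within cluster 10, Mki67 was found in all 3 library sums of cells with Cd209a alone (120, 44.0 and 46.2 CPM in libraries 1, 2 and 5, from 5 UMIs), a class defined below, and in none of the sums of Ly6c2 cells. Stmn1 had 6 UMIs in the Cd209a sums and 1 in the Ly6c2 sums, and Cenpf 1 and 0. Top2a and Ube2c went the other way, with 0 and 2 and with 0 and 1 UMIs. These counts are too few to compare proliferation between the classes.

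Transcripts of the proximal tubule were found in the cluster in every library. Leaving out Napsa, the list summed to 2780, 3344, 2396, 2482, 6995, 11654 and 2224 CPM in libraries 1 to 7, against 26005 to 59960 CPM in cluster 3. Libraries 5 and 6 were high, and in library 6 clusters 11 and 14 were also at their highest (23548 and 13822 CPM). Napsa, an aspartic protease of lysosomes, went its own way: it averaged 465 ± 89.7 CPM in cluster 10, above the 298 CPM of cluster 3. The part of tubule transcripts in the levels given for library 6 was not tested.

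**Figure D2:**
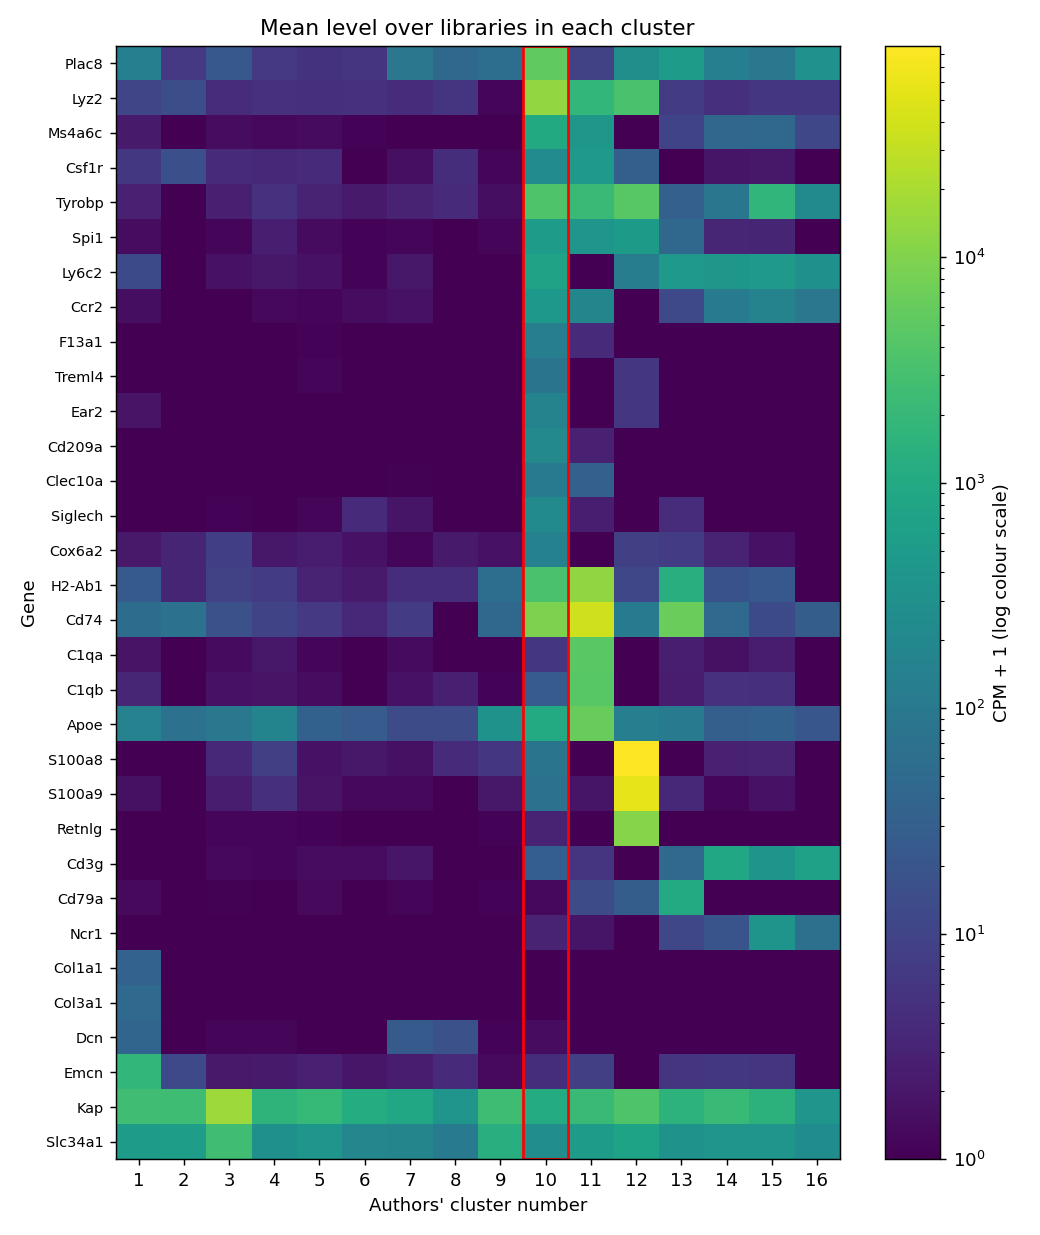
Mean level over libraries (CPM + 1, log colour scale) of marker genes in each of the 16 clusters; rows are genes and the red box marks cluster 10. Plac8, Lyz2 and the narrow markers Treml4, Ear2, Cd209a and Siglech are bright in cluster 10, C1qa and C1qb in cluster 11 (4813 and 4504 CPM), S100a8 in cluster 12 and Kap, a tubule gene, in every cluster.

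By overall expression the nearest cluster was the macrophage-like cluster 11. Over 12750 genes the log levels of cluster 10 correlated with those of cluster 11 at r = 0.883, then with cluster 14 at 0.853 and cluster 13 at 0.850. These are correlations across genes of clusters that share libraries, given as descriptions. The 7 libraries of cluster 10 correlated with each other at 0.835 to 0.926. Against the mean of the other immune clusters 11 to 15, 451 genes (2.77%) were at least 2-fold above and 408 (2.51%) at least 2-fold below. The lowest of these relative to the immune mean, besides those of neutrophils and macrophages, were Jchain, the joining chain of antibodies, at 11.2 CPM against 65295 CPM in cluster 13, and the cytotoxic lymphocyte genes Ccl5 (14.6 against 28986 CPM) and Gzma (0.28 against 8825 CPM) of cluster 15.

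Genes of antigen presentation were high in cluster 10 and higher in cluster 11. Of 12 MHC class II genes, 11 were at least 2-fold above the mean of the other clusters, but 1 had its highest level in cluster 10, Ifi30, a lysosomal thiol reductase (274 ± 51.7 CPM). H2-Ab1, a class II beta chain, ran from 855 CPM in library 6 through 2990 to 5408 CPM in library 1, and the invariant chain Cd74 from 3064 through 8689 to 14866 CPM. In cluster 11 their means were 13194 and 38099 CPM. H2-Ab1 was detected in 40.6% and H2-Eb1 in 23.9% of the cells of cluster 10.

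H2-Eb1, the other class II beta chain, divided the libraries. It was at 3071 CPM in library 1, 1600 in library 2, 0 in library 3, 138 in library 4, 2138 in library 5, 9.80 in library 6 and 1399 CPM in library 7. Per 100 H2-Ab1 UMIs this was 56.8, 61.6, 71.5 and 69.4 H2-Eb1 UMIs in libraries 1, 2, 5 and 7, against 0, 2.99 and 1.15 in libraries 3, 4 and 6. The same 3 libraries were low in cluster 11, at 1.18, 1.10 and 1.89 per 100 against at least 72.4 in the other 4, and in the B lymphocyte-like cluster 13, at 4.35, 8.51 and 3.15 against at least 83.0. Library 3 rested on 0 of 69286 UMIs in cluster 10, which allows up to 43.3 CPM. H2-Ab1 and the alpha chain H2-Aa did not divide the libraries in this way: in libraries 3 and 4 of cluster 10 H2-Ab1 was at 4647 and 4636 CPM and H2-Aa at 6278 and 6383 CPM, above libraries 2, 5 and 7. The division was noticed after the values had been seen, and no test of it or of its source was made.

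Several other functional groups were high in part. At least 2-fold above the mean of the other clusters were 9 of 10 Fc receptor genes, 11 of 14 lysosome and oxidase genes and 10 of 14 interferon response genes. So were 10 of 14 S100, annexin and actin genes, 9 of 14 homing genes, 9 of 16 myeloid transcription factors and 8 of 13 pathogen sensors, against 4.43% of all genes. Against the mean of clusters 11 to 15 the counts were 7, 8, 8, 5, 3, 8 and 3 in that order (2.77% of all genes). Summed levels were higher in cluster 11 for lysosome and oxidase genes (8776 against 8567 CPM) and pathogen sensors (859 against 641). They were higher in cluster 15 for S100, annexin and actin genes (34420 against 33890) and homing genes (2130 against 1923). Among clusters 10 to 15 the remaining groups summed highest in cluster 10. Psap, a lysosomal activator protein, averaged 2370 ± 631 CPM and Cybb, the catalytic subunit of the phagocyte oxidase, 653 ± 202 CPM. Both means were above that of every other cluster. For Cybb the next highest, cluster 11, had 545 CPM, and 5 of the 7 libraries of cluster 10 lay above it. Fgr, a Src-family kinase downstream of Fc receptors, averaged 182 ± 57.7 CPM. The complement and coagulation genes were mixed: 5 of 11 were at least 2-fold above and 4 at least 2-fold below, with a median of -0.40 on the log2 scale and a sum of 396 CPM against 13219.8 CPM in cluster 11, where the C1q subunits lie. F10, coagulation factor X, averaged 43.3 ± 38.9 CPM with at most 0.864 CPM elsewhere. Of 13 chemokine and cytokine genes, 3 were at least 2-fold above and 4 at least 2-fold below, and their summed level of 1538 CPM lay below that of clusters 11 and 12 (2255 and 8796 CPM). Tnf averaged 9.41 CPM and Il1b 121 CPM, against 2208 CPM for Il1b in cluster 12, while Ccl6 and Ccl9 averaged 575 ± 209 and 397 ± 114 CPM. Of the 15 immediate early and heat shock genes, which respond to tissue dissociation, 7 were 2-fold above, and Fos was at 389 ± 222 CPM.

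Within the cluster, cells carried marker genes of different monocyte classes. Cells were classed by UMIs of seed genes: Ly6c2 for classical cells, Treml4, Adgre4, Ear2 or Spn for patrolling cells, and Cd209a. With seeds of 1 class only there were 117 Ly6c2 cells, 168 patrolling cells and 26 Cd209a cells. A further 145 cells held seeds of several classes, 108 of them Ly6c2 with a patrolling seed alone, and 93 cells held none. Depth differed between the classes: the median was 1859.5 UMIs in patrolling cells, 2774 in Ly6c2 cells, 3658 in Cd209a cells and 3469 in cells with several.

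The mix of classes, by cells with seeds of 1 class alone, differed between libraries. Patrolling cells were 20.4, 8.93, 29.4, 19.2, 10.1, 48.1 and 27.3% of cluster 10 in libraries 1 to 7. Library 6 had the highest of these shares, with a Wilson interval of 41.8 to 54.5%. It held 113 of the 168 patrolling cells, at the lowest median depth of the cluster. Cells with seeds of several classes are left out of these shares, and their own share was lowest in library 6 (14.9%). Cells with any patrolling seed numbered 19 of 49, 25 of 56, 16 of 17 and 16 of 26 in libraries 1 to 4. In libraries 5 to 7 they numbered 22 of 89, 146 of 235 and 54 of 77. By that count library 6 was not highest. Ly6c2 cells were 26.5, 25, 5.88, 26.9, 23.6, 18.3 and 23.4%; the low value of library 3 is 1 of 17 cells, and 64.7% of its cells held seeds of several classes. Cd209a cells were 10.2, 10.7 and 12.4% in libraries 1, 2 and 5, 3.90% in library 7, 0.426% in library 6 and 0 of 17 and 26 cells in libraries 3 and 4.

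**Figure D3:**
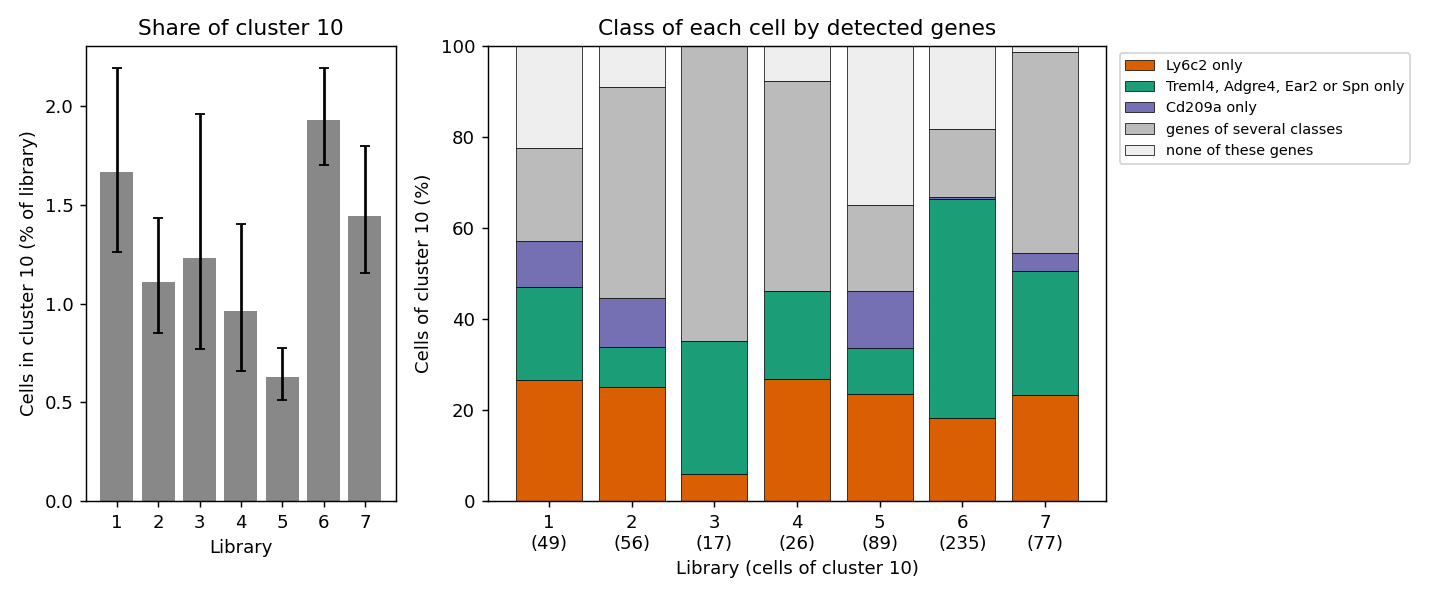
Left, cells of cluster 10 as a percentage of all cells of each library, with 95% Wilson intervals; right, the cells of cluster 10 in each library (number of cells in brackets) by the class of seed genes detected. Library 6 has the largest share of cells with patrolling seeds alone (48.1%), though not of cells with any patrolling seed. Cells holding Cd209a alone are found mostly in libraries 1, 2 and 5.

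The classes were compared over library sums of at least 5 cells (6 Ly6c2, 7 patrolling and 3 Cd209a sums) with the library as a block, on 564 genes besides the seeds. Because the classes rest on detected genes, genes that vary with a seed are compared between cells chosen by that seed. Ace, Eno3 and Cst3 were higher, and Fn1 and Ccr2 lower, in patrolling cells than in Ly6c2 cells. By edgeR's quasi-likelihood test with Benjamini-Hochberg adjustment, 17 genes (3.01%) were higher and 15 (2.66%) lower. In all 3 contrasts the seeds are left out of such counts but not of the adjustment, where their small p-values can lower other adjusted p-values. Calls near the threshold may depend on this, which was not tested. Examples are Unc119 here (edgeR adjusted p = 0.0491) and Irf8 between Cd209a and Ly6c2 cells (0.04995).

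Among the genes higher in patrolling cells were 5 of the patrolling list. Ace, the angiotensin-converting enzyme, ran from 65.8 through a median of 395 to 517 CPM in patrolling sums and from 0 through 15.4 to 41.4 CPM in Ly6c2 sums, so the groups did not overlap (log2 difference 3.70 ± 0.55, SE, edgeR adjusted p = 0.00198). Eno3, the muscle form of enolase, was at 0, 226 and 471 CPM (lowest, median, highest) against 0, 12 and 38.7 CPM, with library 2 at 0 in both classes (4.16 ± 0.54, adjusted p = 0.00185). Pglyrp1, a peptidoglycan-binding protein, was 2.79 ± 0.44 higher (adjusted p = 0.00198), Pou2f2, an octamer-binding transcription factor, 1.87 ± 0.33 (adjusted p = 0.00269) and Itgal, the alpha chain of the integrin LFA-1, 1.73 ± 0.38 (adjusted p = 0.0108). Of the list's 14 genes 4 are seeds and the other 5 did not pass the filter on low counts, so the count of 5 is not support for the list. Outside the list, Gngt2 was higher in 6 of the 6 libraries with both classes (1.79 ± 0.24, adjusted p = 0.00104), and Cst3, which encodes the protease inhibitor cystatin C, was at 3255, 6402 and 12214 CPM against 1449, 2106 and 3065 CPM, without overlap (1.70 ± 0.30, adjusted p = 0.00317).

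Of the 12 classical monocyte genes, 6 could be tested and 2 were lower in patrolling cells, Fn1 and Ccr2. Chil3 (-1.90, edgeR adjusted p = 0.102), Mgst1 (-1.30, adjusted p = 0.108) and Hp (-0.46, adjusted p = 0.703) did not pass, nor did Clec4a1 (0.85, adjusted p = 0.284). Fn1 was at 0, 62.8 and 136 CPM against 173, 360 and 658 CPM, without overlap (-2.85 ± 0.50, adjusted p = 0.00269). Ccr2, which draws classical monocytes into tissue, was at 0, 296 and 346 CPM against 329, 563 and 775 CPM, lower in 6 of 6 libraries though the ranges overlap (-1.12 ± 0.24, adjusted p = 0.00945). Outside that list, the chemokine Ccl9 differed by -1.94 ± 0.34 (adjusted p = 0.00269), Wfdc17, a secreted whey acidic protein, by -1.96 ± 0.37 (adjusted p = 0.0053), Ms4a4c by -1.61 ± 0.31 (adjusted p = 0.00606) and S100a10, an annexin partner, by -1.32 ± 0.29 (adjusted p = 0.0111). Of the 12 S100, annexin and actin genes tested, 3 were lower (S100a10, S100a6 and Lgals3) and none higher, against 2.66% lower and 3.01% higher of all genes tested. Cox6a2 (-4.54 ± 0.66, adjusted p = 0.00199) and Bst2, a tethering factor of the interferon response (-1.91 ± 0.40, adjusted p = 0.00945), were also lower, but they moved with the Siglech cells described next: 18 of the 117 Ly6c2 cells and 2 of the 168 patrolling cells held Siglech. Without Siglech cells, Bst2 differed by -0.73 and did not pass the threshold. Without library 6 the contrast called 20 genes in place of 32, and of the genes named by rule Itgal, S100a10, Lgals1, Metrnl and Sec61b no longer passed. With at least 10 cells per sum 4 genes passed, among them Ace, Eno3 and Pglyrp1.

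Cells with Cd209a alone carried more H2-Eb1, H2-Aa, H2-Ab1 and Cd74 transcripts than Ly6c2 cells and less Lyz2. The contrast called 8 genes higher (1.42%) and 22 lower (3.9%). Of the 12 MHC class II genes 8 were tested and those 4 were higher, while H2-DMa (adjusted p = 0.409), H2-DMb1 (0.262), Ifi30 (0.798) and Ctss (0.274) did not pass edgeR's test. Patrolling cells also exceeded Ly6c2 cells for 3 of the 8, H2-Eb1 (1.13 ± 0.24, adjusted p = 0.0102), H2-Ab1 (1.08 ± 0.23, adjusted p = 0.00945) and Cd74 (0.89 ± 0.21, adjusted p = 0.0191). In library 6, which held 113 of the 168 patrolling cells, these 3 genes were lower in patrolling cells. There H2-Ab1 was at 521 against 720 CPM, Cd74 at 2070 against 2870 and H2-Eb1 at 8.68 against 20.6. Cluster 10 held only 5 H2-Eb1 UMIs in library 6. In the other libraries with both classes all 3 were higher. The patrolling call of H2-Eb1 was lost in 7 of 15 alternatives, among them no filter, no block, thinning and leaving out library 5 or library 7. No class II gene passed between Cd209a and patrolling cells. All 3 Cd209a sums come from libraries where H2-Eb1 was high. H2-Eb1 was at 4437, 4307 and 4023 CPM in libraries 1, 2 and 5 against 1079, 996 and 897 CPM in the Ly6c2 cells of those libraries (2.07 ± 0.27, adjusted p = 0.00117), and Cd74 was at 17688, 17845 and 15331 CPM against 5271, 3894 and 5467 CPM there (1.71 ± 0.27, adjusted p = 0.00305). Lyz2 differed by -2.83 ± 0.61 (adjusted p = 0.0141), and Chil3, at 0 UMIs in Cd209a cells, was at least 11.7-fold lower, against a floor of 3 UMIs over the class. Against patrolling cells, 0 genes were higher in Cd209a cells and 8 lower (1.42%) by edgeR, while 93 genes had an unadjusted p under 0.05 in either direction and DESeq2 called 1 gene higher. Apoe was at 0, 0 and 162 CPM in the Cd209a sums, against 0, 2072 and 4025 CPM (lowest, median, highest) in patrolling sums, where library 3 was at 0 (-5.32 ± 0.73, adjusted p = 0.00109), and Cebpb, a C/EBP transcription factor, was at 120, 176 and 254 CPM against 684, 1540 and 4582 CPM (-2.89 ± 0.42, adjusted p = 0.00144). The Cd209a class is 26 cells, 22 of them in the 3 sums tested, and none of the 26 held Siglech. Of the 117 Ly6c2 cells 18 held Siglech, 7 of them among the 13 Ly6c2 cells of library 1. Without Siglech cells, Actb, Pid1 and Irf8 no longer passed between Cd209a and Ly6c2 cells. H2-Eb1, H2-Aa, H2-Ab1, Cd74 and Lyz2 still passed.

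**Figure D4:**
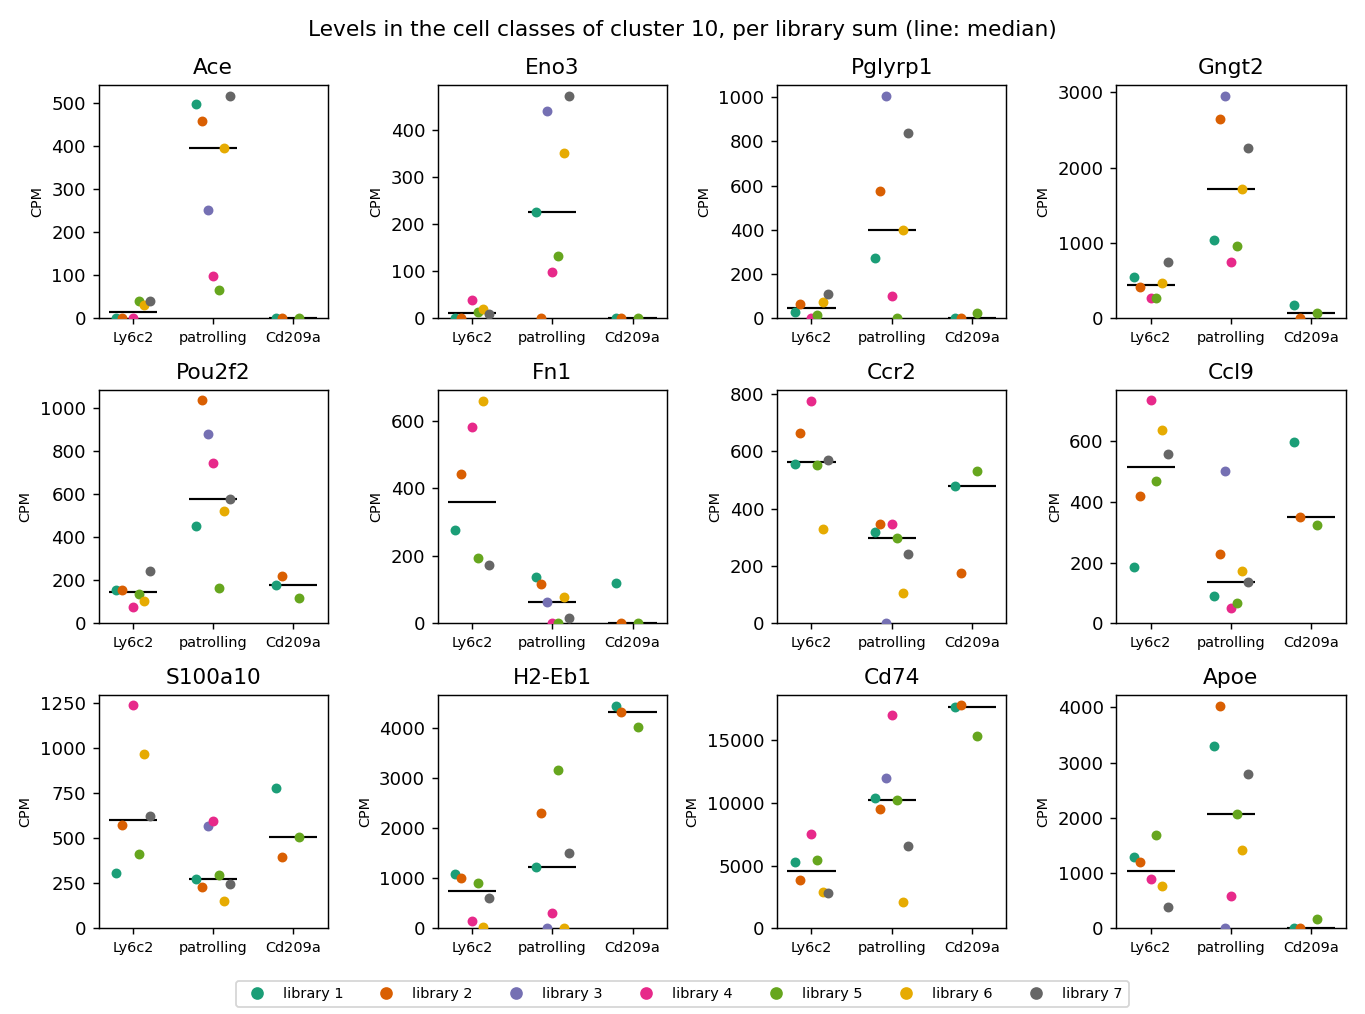
Levels (CPM) of 12 genes in the Ly6c2, patrolling and Cd209a cells of cluster 10; each point is a library sum of at least 5 cells and each line the median over libraries. Ace and Gngt2 sit higher in the patrolling sums, Fn1 higher in the Ly6c2 sums, and Cd74 in all 3 Cd209a sums (15331 to 17845 CPM) lies above every Ly6c2 sum, while H2-Eb1 is low in libraries 3, 4 and 6.

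A group of 44 cells (8.01%) held Siglech, a lectin of plasmacytoid dendritic cells, and few transcripts of Lyz2. The split was chosen after the levels had been seen and is described without a test. The cells came from every library: 10, 6, 2, 6, 10, 8 and 2 cells in libraries 1 to 7. Cox6a2 was detected in 38 of the 44 and in 3 of the other 505 cells, Ly6d, a surface protein of lymphoid precursors, in 38 and 0, and the gut-homing receptor Ccr9 in 29 and 1. Lyz2 was detected in 1 of the 44 and in 478 of the others, Ms4a6c in 2 and 404, and Csf1r had 0 UMIs in the 44 cells against 451 in the others. Plac8 was shared, detected in all 44 and in 468 of the others, as was Ly6c2, in 35 and 214. Cd209a was detected in 13 of the 44 (29.5%) and in 50 of the others (9.90%). Summed over the cells, Tcf4, which encodes the transcription factor E2-2 of plasmacytoid cells, was at 1205 against 39.7 CPM, and Irf8 at 2293 against 195 CPM. The median depth was 3036.5 UMIs in the 44 cells and 2611 in the others. Of the 70 cells with no Lyz2 UMI, 43 held Siglech. Another 19 cells held Xcr1 or Clec9a, receptors of type 1 dendritic cells, 9 of them in library 5 and 3 of them with Siglech as well.

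**Figure D5:**
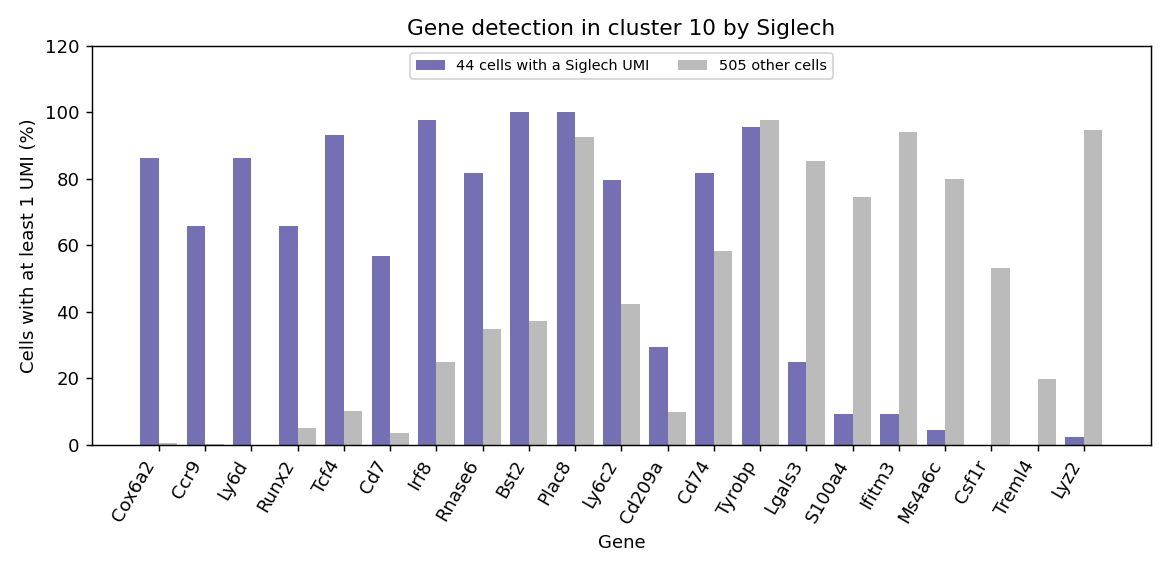
Percentage of cells with at least 1 UMI of each gene among the 44 cells of cluster 10 with a Siglech UMI and among the cells without. Cox6a2, Ccr9 and Ly6d are found almost only in the first, Lyz2, Csf1r and Ms4a6c mostly in the second (Lyz2 in 1 of the 44 and 478 of the others), and Plac8 in nearly all cells of both.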

How the data were processed

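7 whole kidneys gave 1 matrix of raw UMI counts, 16272 genes by 43745 cells, which the authors deposited with a cluster number for each cell; the series text states 57979 cells. Per the submitters' processing notes the tools were STAR and Cell Ranger 1.3, and the build was mm10, or GRCm38.p4; how cells were filtered and clustered is not given in the sources used here. The cells hold 707 to 15000 UMIs and 201 to 2998 genes, and libraries sum to 4217169 to 49997616 UMIs. The barcode ending gave the library.

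Counts were summed per cluster and library (at least 5 cells) and scaled to CPM. Folds over the other clusters used means over libraries and a pseudocount of 10 CPM. Classes within cluster 10 were tested in edgeR 4.0.16 (R 4.3.3) on library sums of raw counts: TMM, filterByExpr, quasi-likelihood F test, 1 fit over the 3 classes with library as a block (same-numbered sums come from 1 library, hence 1 animal), Benjamini-Hochberg adjustment over all genes that passed the filter, threshold 0.05. The script was tested on simulated data. P-values rest on the spread left after the library block, that is how class differences vary across libraries, pooled over the 3 classes. Alternatives used DESeq2 1.42.0, DESeq2 size factors, no filter, at least 10 cells per sum, no block, cells thinned to 1000 UMIs, no cells with other-lineage markers, each library left out and, added after the levels were seen, no Siglech cells.

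Named genes are the 25 with the largest fold at 100 CPM or more, the 10 lowest against clusters 11 to 15, members of 19 marker and 11 function lists, and up to 10 per direction in each contrast with an average log2 CPM of at least 6. The members and lists were chosen with earlier results of these data known. The gene-name table held 15721 of the symbols. Intervals (95%) and floors (3 counts) cover counting error only. Genotypes were not compared. Some list members are not reported here.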

Additional observations from a re-analysis of the deposited data

Results flagged for a closer look

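Among 34 quantities with a value in each of the 7 libraries of cluster 10 (the levels of the markers, seeds and leading genes, the cluster's share and the class shares), 7 had a library that stood apart from the other 6 by Dixon's criterion at the 95% level; chance gives such a gap in about 1 in 20 groups. Library 3, with 17 cells, accounts for 5 of the 7. Its Ms4a4c level was 852 CPM against 214 to 476 in the others, Ms4a6d, a relative of Ms4a6c, 491 CPM against 53.6 to 173, Cd300a, an inhibitory lipid receptor, 577 CPM against 146 to 284, and Ly6i, a Ly6-family surface protein, 433 CPM against 7.66 to 145. The share of Ly6c2 cells in library 3, 5.88% against 18.3 to 26.9%, was the fifth. In library 2 Chil3 was at 545 CPM against 109 to 292, and in library 7, which had the highest median depth in the cluster, Ly6c2 was at 1480 CPM against 258 to 778.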

How the results depend on the processing

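The marker levels kept their direction under every alternative run for them except Csf1r: against the highest other cluster instead of their mean, Csf1r was -0.89 on the log2 scale, since cluster 11 is higher. The number of genes at least 4-fold above the others, 168, became 418 with a pseudocount of 1 CPM and 21 against the highest other cluster, and 165 to 182 with a library left out. As a share of clusters 10 to 15 the cells averaged 20.5% in place of 1.28%, which is another denominator.

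The counts of the class contrasts depended on the settings. Cd209a against Ly6c2 (30 genes) gave 16 with no replicate block, 12 with cells thinned to 1000 UMIs, 11 without cells holding other-lineage markers and 13 to 30 with a library left out (16 without library 1, 13 without library 2, 14 without library 5, the 3 libraries with a Cd209a sum). Patrolling against Ly6c2 (32 genes) gave 64 with no filter, 4 with at least 10 cells per sum, 20 with no replicate block, 15 after thinning and 20 to 37 with a library left out. Cd209a against patrolling (8 genes) gave 14 with DESeq2, 18 with no filter, 20 with no replicate block, 19 after thinning, 17 without Siglech cells (an alternative chosen after seeing the data) and 5 to 13 with a library left out. Thinning tested 213 genes in place of 564; the other causes were not tested. With at least 10 cells per sum fewer than 2 Cd209a sums remain, so both Cd209a contrasts were not run there. Of 697 single-gene values under an alternative, 559 kept direction and side of the threshold, 132 kept direction only, 5 moved and 1 reversed. Small classes and 3′ counting limit the contrasts to well-expressed genes.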
